A study of Mus musculus with 17 samples.

Results

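The receptors and adaptors through which cells read insulin and the insulin-like growth factors (IGFs), and the proteins that bind IGFs outside cells, were followed in testes and forebrain of newborn osteocalcin-deficient mice. The group holds 10 genes, chosen by name: the receptors Igf1r and Insr, the adaptors Irs1 and Irs2, and the binding proteins Igfbp2, Igfbp3, Igfbp4, Igfbp5, Igfbp6 and Igfbp7. All 10 were found among the 55359 genes of the deposited count table, and all 10 passed the filter on low counts in both organs.

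The study asked whether osteocalcin, a hormone made by bone, acts on the offspring from the mother as well as from the embryo. The data are 17 RNA-seq libraries from male pups at postnatal day 1 of the strain Ocn_GK, which carries an osteocalcin deletion made by homologous recombination in every cell of the animal. WT pups came from WT mothers (2 libraries of testes and 3 of forebrain). Ocn+/- pups (3 libraries per organ) and Ocn-/- pups (3 per organ) both came from Ocn-/- mothers, so the genotype of the pup, that of its mother and the litter differ together in each comparison with WT, and their parts cannot be told apart. Only Ocn-/- against Ocn+/- compares pups whose mothers had the same genotype. Both comparisons with WT use the same WT libraries. The study counts as many mice as testes libraries in each genotype, so each testes library is read here as 1 pup. For forebrain a figure legend of the study counts 2 WT mice, while all 3 deposited WT libraries are used here. Which WT forebrain library the study may have left out is not stated. The p-values measure the spread between libraries.

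Library totals were 7302401 to 8289015 expected counts in testes and 6518151 to 14621584 in forebrain. The deleted genes could not check the labels, since Bglap, which encodes osteocalcin, had 0 to 5 counts and its neighbour copy Bglap2 had 0 counts in every group, WT included. The summed level of 5 neuronal markers was 3977 to 4590 CPM (counts scaled to library size and TMM factor) in the forebrain libraries and 43.5 to 54.5 in testes, while 6 Leydig markers summed to 714 to 1772 CPM in testes and to 10.02 to 19.3 in forebrain. Forebrain is the term of the study's methods, where the sample labels say hippocampus. The library forebrain WT 3 was the smallest and stood apart from the other WT forebrains (chi-square per gene 69.9 and 90.8, against 3.57 to 13.2 in all other pairs of one group), so values that rest on it are also given without it.

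Insulin, IGF1 and IGF2 signal through a pair of related tyrosine kinase receptors. An activated receptor recruits the adaptors Irs1 and Irs2, which pass the signal to PI3-kinase and Akt, and Akt in turn keeps the FOXO transcription factors out of the nucleus. In blood and tissue most IGF is held by the binding proteins, which lengthen its life and can keep it from the receptor, until proteases release it. IGF signalling is a major driver of fetal and early postnatal growth, and in the testis it is known for its part in Leydig and Sertoli cell proliferation.

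The results turned on Igfbp3 and Igfbp5, and the 250 bases before their annotated starts in GRCm39 are shown so that their regulatory sequence can be read beside the values. Igfbp3 lies on the minus strand, with its upstream window at chr11:7164180-7164429 and the gene body at positions 7156086 to 7164179. Igfbp5 lies on the minus strand of chromosome 1, with its window at chr1:72914044-72914293 and its body at 72897091 to 72914043. Each is printed on the gene's own strand.
Igfbp3: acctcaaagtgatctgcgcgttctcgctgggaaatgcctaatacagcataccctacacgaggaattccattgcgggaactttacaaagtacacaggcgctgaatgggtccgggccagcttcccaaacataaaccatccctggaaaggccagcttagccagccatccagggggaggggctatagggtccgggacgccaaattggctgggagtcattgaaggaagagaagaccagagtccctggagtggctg
Igfbp5: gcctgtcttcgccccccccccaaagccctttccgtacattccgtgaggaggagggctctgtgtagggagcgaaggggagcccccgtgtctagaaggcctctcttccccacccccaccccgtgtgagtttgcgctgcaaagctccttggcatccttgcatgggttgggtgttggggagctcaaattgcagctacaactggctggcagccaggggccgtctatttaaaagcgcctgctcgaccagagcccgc
Neither window held the FOXO motif TGTTTAC or the cAMP response element TGACGTCA on either strand, and none of the 10 genes held one within 250 bases before to 50 after the start of its canonical transcript, which for Igfbp2 and Igfbp7 lies slightly inside the gene's outer bound. Over 21770 protein-coding promoters of that length, 3.15% held the first motif and 2.44% the second. This says only that these letters are not in these windows. The other members lie at 7:67601518 to 67883416 (Igf1r), 8:3172061 to 3329647 (Insr), 1:82210822 to 82269338 (Irs1), 8:11034681 to 11059499 (Irs2), 1:72863606 to 72891634 (Igfbp2), 11:98932064 to 98945218 (Igfbp4), 15:102052697 to 102057953 (Igfbp6) and 5:77493130 to 77555931 (Igfbp7). All but Igfbp2, Igfbp4 and Igfbp5 overlap another annotated gene, and whether reads were counted by strand is not given in the sources used here. Igfbp3 and Igfbp1 are neighbours, with 3539 bases between them, and Igfbp5 and Igfbp2 lie end to end on opposite strands with 5456 bases between them.

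Igfbp3, whose product is the main carrier of IGF in serum, was lower in forebrain of both mutant genotypes. The 3 WT libraries held 40.5, 47.5 and 44.3 CPM, the 3 Ocn+/- libraries 29.8, 27.9 and 30.3, and the 3 Ocn-/- libraries 28.2, 31.5 and 28.5. The groups did not overlap: every mutant forebrain lay below every WT forebrain, and the mutants lay within a narrow band. The log2 fold change was -0.58 (SE 0.108, adjusted p = 0.00474, edgeR's quasi-likelihood test with Benjamini-Hochberg adjustment over all genes) for Ocn+/- and -0.58 (SE 0.108, adjusted p = 0.00508) for Ocn-/-, that is 0.667 and 0.669 times the WT level. Between the mutants it was 0.01 (95% interval -0.21 to 0.22). Without WT 3 the changes were -0.58 (adjusted p = 0.0217) and -0.57 (adjusted p = 0.0224), and both calls held in 18 of 18 alternative settings. Of the 10 genes, 3 passed the threshold in Ocn+/- forebrain, where 3.89% of the 16076 genes tested passed it, and 1 in Ocn-/- forebrain, where 4.85% did. Igfbp3 was the gene past it in both.

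**Figure D1:**
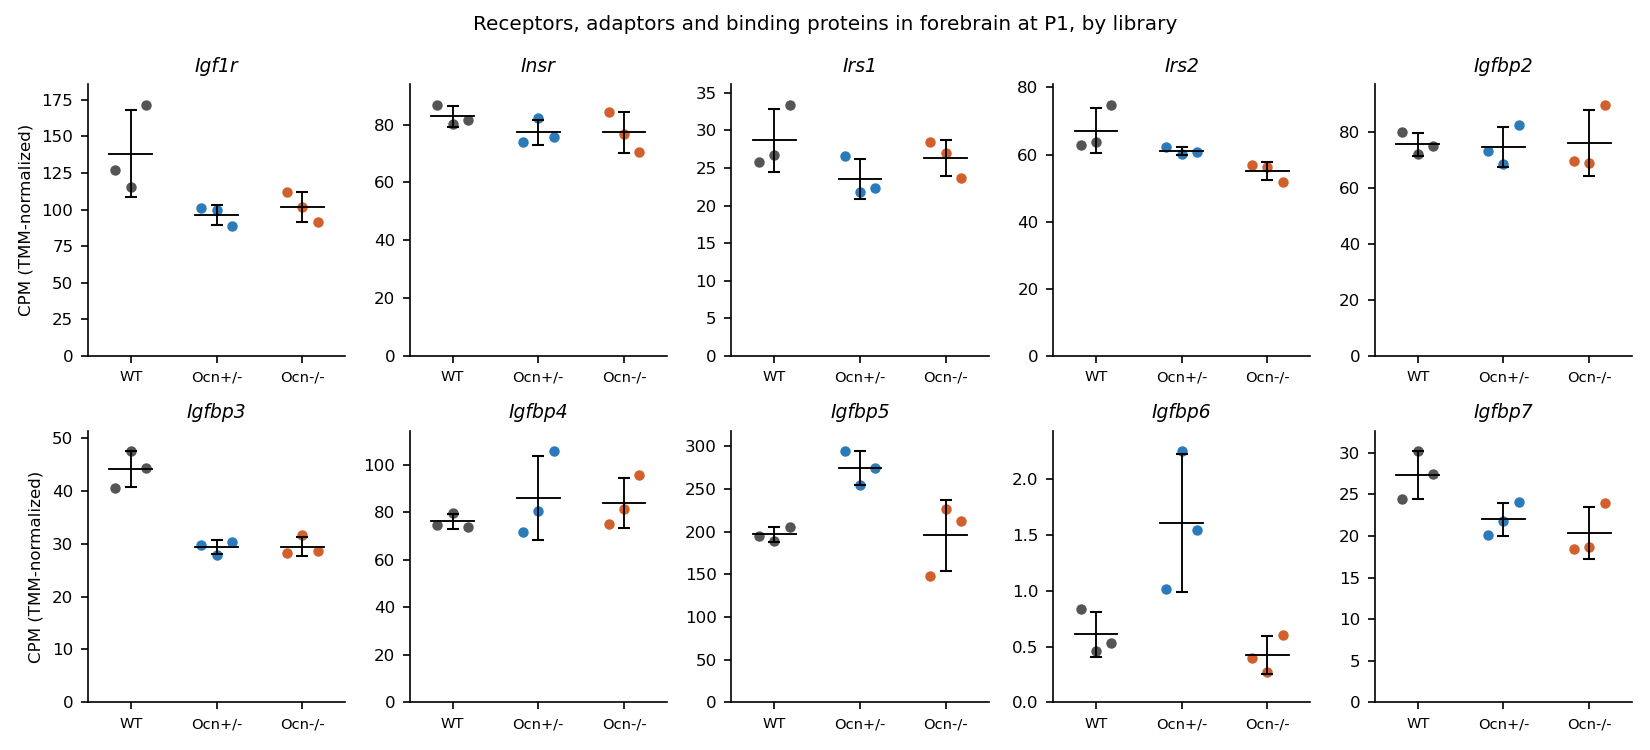
Forebrain levels of the 10 genes in CPM, 1 point per library, by genotype; the long bar is the mean and the error bar the SD of 3 libraries. For Igfbp3 the 6 mutant libraries sit between 27.9 and 31.5 CPM, all under the WT libraries, while the 3 Ocn+/- libraries of Igfbp5 lie above all others, at 254 to 294 CPM.

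Markers of other tissue moved among these forebrains. The summed level of 4 olfactory bulb markers (Tbx21, Cdhr1, Doc2g and Th) was 13.3 to 20.6 CPM in WT, 81.0 to 106.7 in Ocn+/-, and 12.9, 60.8 and 64.4 in the 3 Ocn-/- libraries, although 0 of the 4 passed the test in either mutant. The Ocn-/- library with the lowest marker sum of all 9, 12.9, held 28.2 CPM of Igfbp3. Of 6 endothelial markers, 2 were called lower in Ocn+/- and 1 in Ocn-/-. Estimates were positive for 3 and negative for 3 in Ocn+/-, and positive for 2 and negative for 4 in Ocn-/-. Their sum was 159 to 185 CPM in WT, 141 to 169 in Ocn+/- and 134 to 186 in Ocn-/-. Of 4 erythroid markers tested, 2 were called lower in Ocn+/- and 1 in Ocn-/-, with sums of 388 to 526 CPM in WT, 272 to 317 in Ocn+/- and 362 to 421 in Ocn-/-. Choroid plexus markers, with 0 of 5 called, summed to 568 to 734 CPM in WT, 569 to 855 in Ocn+/- and 320 to 530 in Ocn-/-. Radial glia markers, with 0 of 4 called, summed to 641 to 709 CPM in WT, 787 to 823 in Ocn+/- and 691 to 914 in Ocn-/-. The 6 smooth muscle markers, with 0 of 4 tested called, summed to 13.1 to 14.9 CPM in WT, 9.61 to 13.05 in Ocn+/- and 9.90 to 11.6 in Ocn-/-. On this sum all 6 mutants lay below every WT forebrain, as for Igfbp3 and Igfbp7. Of the 4 tested, however, 2 had positive and 2 negative estimates in Ocn+/- (median 0.05). In Ocn-/- 1 was positive and 3 were negative (median -0.39). Fibroblast and meninges markers had negative estimates in 6 of 6 genes in Ocn-/- (median -0.36), with 0 called. The part of these tissues and cells in the Igfbp3 and Igfbp7 values was not tested. In RNA of whole tissue, fewer cells of a type and less RNA per cell cannot be told apart.

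In testes the same gene pointed the same way without passing the threshold. Igfbp3 was at 300 and 332 CPM in WT, at 212, 179 and 222 in Ocn+/- and at 168, 236 and 110 in Ocn-/-. All 6 mutant libraries lay below both WT libraries, and the Ocn-/- libraries spread over more than a factor of 2. The log2 fold change was -0.63 (SE 0.266, adjusted p = 0.181) in Ocn+/- and -0.88 (SE 0.265, adjusted p = 0.0933) in Ocn-/-. Igfbp3 in testes passed under 4 of 17 alternative settings in each mutant, listed next, and missed the threshold under the others. With no filter on low counts the adjusted p was 0.000637 and 3.17e-07 in Ocn+/- and Ocn-/-. The fold changes hardly moved in that fit (-0.63 and -0.88), so its smaller p-values are not added evidence of a change. The likelihood ratio test gave an adjusted p of 0.0223 in Ocn-/-, and the fit with only the 2 genotypes compared gave 0.00636 in Ocn+/-. Without Ocn-/- 3 the adjusted p was 0.0109 and 0.0304, and without Ocn-/- 2 it was 0.0291 and 0.00385, in the order Ocn+/- and Ocn-/-. The difference between the organs in the mean mutant effect was -0.19 (95% interval -0.64 to 0.27, adjusted p = 0.726).

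Blood vessel and Leydig markers were lower in the same testes. Of 6 endothelial markers 3 passed the test as lower in Ocn+/- and 5 in Ocn-/-, and their sum was 539 to 552 CPM in WT, 340 to 403 in Ocn+/- and 321 to 362 in Ocn-/-. The summed Leydig markers were 1691 to 1772 CPM in WT, 714 to 1249 in Ocn+/- and 742 to 1134 in Ocn-/-, with 1 of 6 genes called lower in each. Fibroblast and smooth muscle markers had negative estimates in 6 of 6 genes each in Ocn-/- testes (medians -0.46 and -0.45), with 0 of them called. Ocn-/- 3, with the lowest fibroblast sum of the 8 testes (5752 CPM) and the lowest smooth muscle sum (665 CPM), was also the lowest testis for Igfbp3 and Igfbp5. Erythroid markers had negative estimates in 4 of 4 genes tested in each mutant (medians -1.15 and -1.46), with 0 called and sums of 1920 to 5028 CPM in WT, 634 to 2796 in Ocn+/- and 973 to 1851 in Ocn-/-. Of 6 Sertoli markers 1, Sox9, was called higher in each mutant. Estimates were positive for 4 and negative for 2 in Ocn+/-, and positive for 5 and negative for 1 in Ocn-/-. The Sertoli sums were 871 to 958 CPM in WT, 854 to 1152 in Ocn+/-, which overlap, and 1023 to 1375 in Ocn-/-. The part of these cell types in the testes values of Igfbp3 and Igfbp5 was not tested.

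Igfbp5, a binding protein that sits in the extracellular matrix, had the highest level per length of the 10 genes in testes and was lower there in Ocn-/-. The WT testes held 1061 and 1034 CPM, the Ocn+/- testes 771, 904 and 893, and the Ocn-/- testes 781, 847 and 643. Again every mutant testis lay below both WT testes. This was a log2 fold change of -0.47 (SE 0.132, adjusted p = 0.0471) in Ocn-/- and -0.29 (SE 0.132, adjusted p = 0.175) in Ocn+/-, and between the mutants -0.18 (95% interval -0.41 to 0.06). Igfbp5 was the 1 member of 10 called in Ocn-/- testes, where 5.64% of 16361 genes were, and 0 of 10 were called in Ocn+/- testes, where 8.25% were.

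This call lay close to the threshold. It was lost when any of 6 of the 8 testes was left out, with an adjusted p of 0.231 without WT 1, 0.347 without WT 2, 0.0995 without Ocn-/- 1, 0.141 without Ocn-/- 3, 0.0519 without Ocn+/- 1 and 0.0693 without Ocn+/- 3. The fold change itself stayed between -0.56 and -0.36.

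**Figure D2:**
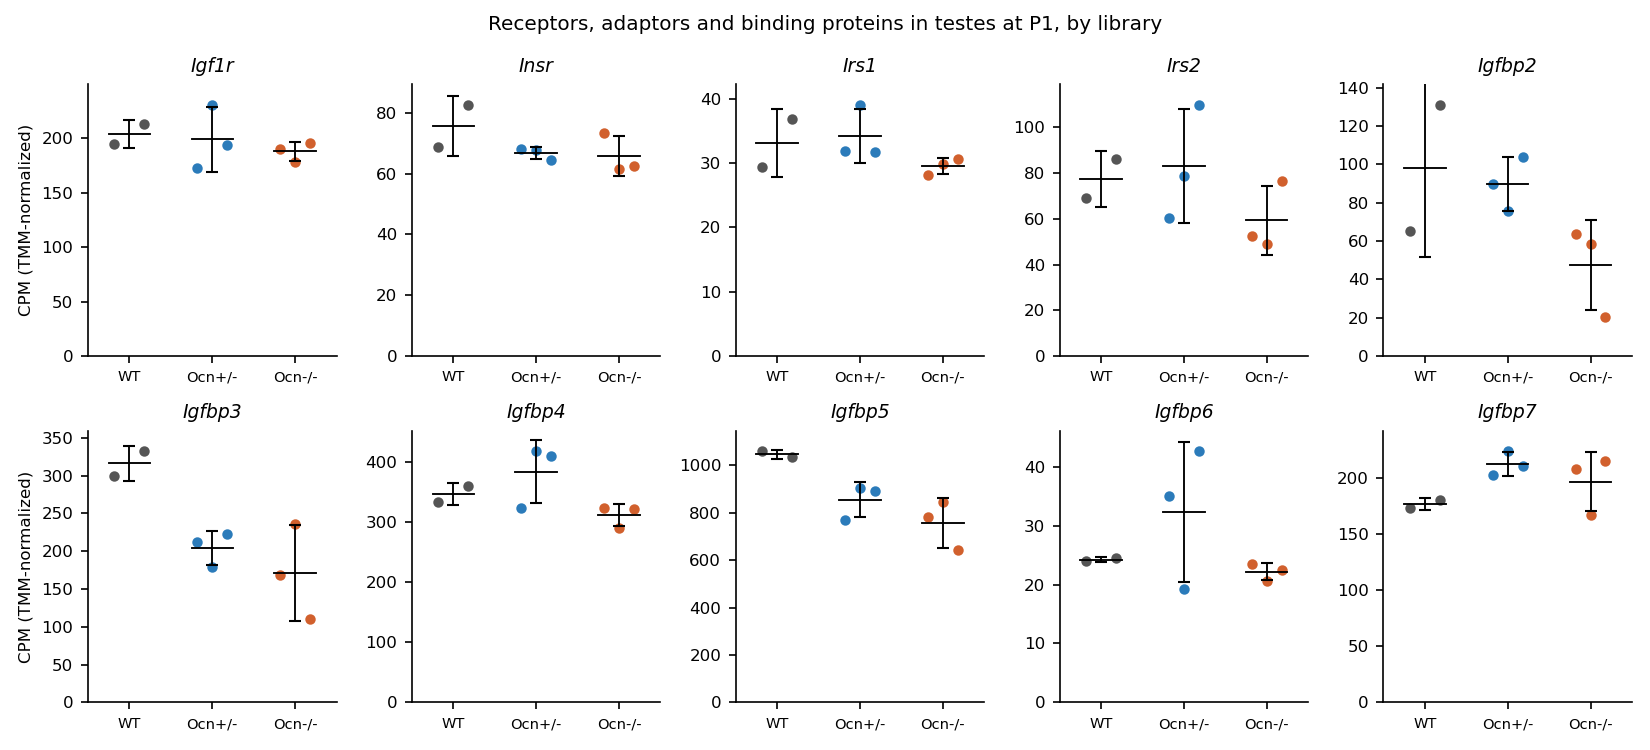
Testes levels of the 10 genes in CPM, 1 point per library, by genotype; the long bar is the mean and the error bar the SD of 2 WT, 3 Ocn+/- and 3 Ocn-/- libraries. Igfbp3 and Igfbp5 lie below WT in all 6 mutant testes, and Igfbp2 spreads from 20.2 to 63.7 CPM in Ocn-/-.

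In forebrain Igfbp5 was higher in Ocn+/-. It was at 195, 190 and 206 CPM in WT and at 294, 254 and 274 in Ocn+/-. The Ocn-/- forebrains held 148, 227 and 212 CPM, on both sides of WT. In log2 terms the change was 0.48 (SE 0.124, adjusted p = 0.0462) in Ocn+/- and -0.01 (SE 0.124, adjusted p = 0.984) in Ocn-/-. Ocn-/- against Ocn+/- gave -0.49 (95% interval -0.73 to -0.25, unadjusted p = 0.00144), and this did not survive adjustment over all genes (adjusted p = 0.999), where Igfbp5 ranked 13 by p. With no filter on low counts it passed (adjusted p = 9.07e-05), but the estimate hardly moved (-0.48), so this pass is not added evidence.

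The Ocn+/- call was also at the edge: the adjusted p was 0.113, 0.132 and 0.161 without WT 1, WT 2 and WT 3, 0.150, 0.0710 and 0.119 without Ocn+/- 1, Ocn+/- 2 and Ocn+/- 3, and 0.0522 without Ocn-/- 3. Across the 9 forebrains Igfbp5 was highest in the 3 libraries with the most olfactory bulb marker RNA and lowest in the library with the least, Ocn-/- 1. The part of tissue from the olfactory bulb in the Igfbp5 values was not tested.

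**Figure D3:**
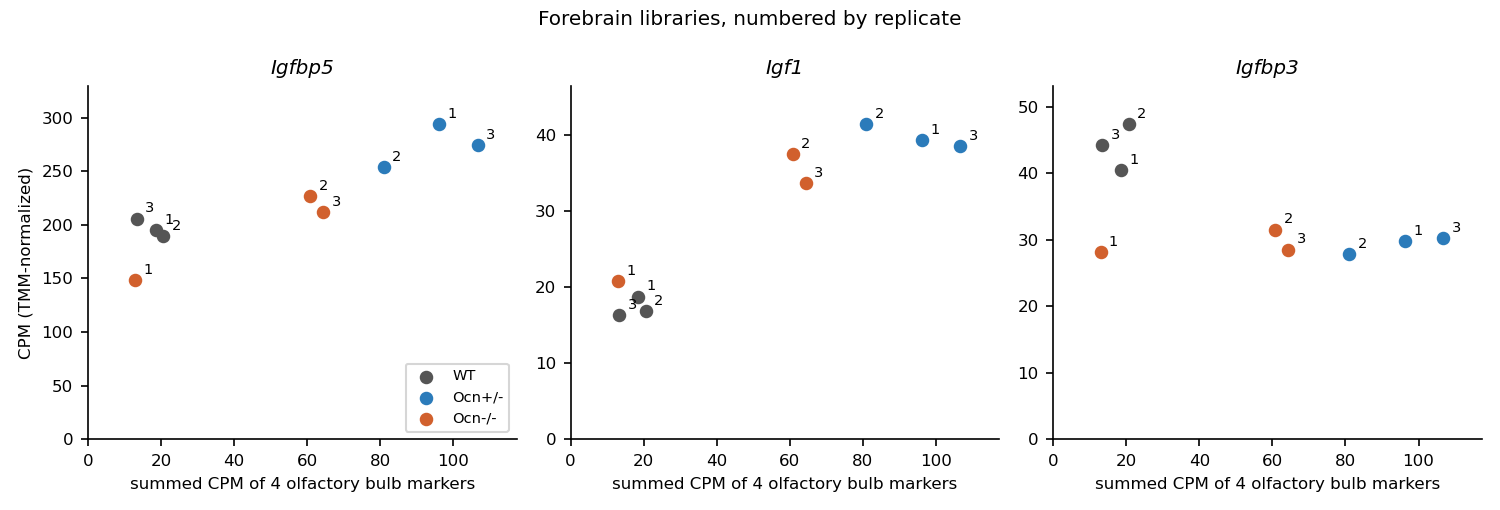
Levels of Igfbp5, Igf1 and Igfbp3 in CPM against the summed CPM of 4 olfactory bulb markers, 1 point per forebrain library, coloured by genotype and numbered by replicate. Igfbp5 and Igf1 are highest in the Ocn+/- libraries, where the marker sum is 81.0 to 106.7, while Igfbp3 in the mutants is 27.9 to 31.5 CPM from a marker sum of 12.9 to 106.7.

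The organs differed in the mean effect of the mutant genotypes on Igfbp5, the 1 member of 10 for which they did, against 2.96% of the 17800 genes tested together. The mutant effect in testes minus that in forebrain was -0.63 on the log2 scale (SE 0.163, adjusted p = 0.0373). This was lost without any of 10 of the 17 libraries, with an adjusted p of 0.147 without testes WT 1, 0.156 without testes WT 2, 0.0580 without testes Ocn+/- 1, 0.0864, 0.100 and 0.0731 without forebrain WT 1, WT 2 and WT 3, 0.0617 and 0.0595 without forebrain Ocn-/- 2 and Ocn-/- 3, and 0.0594 and 0.0566 without forebrain Ocn+/- 1 and Ocn+/- 3. The value kept within -0.72 and -0.57.

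Igf1r, the receptor for IGF1 and IGF2, was lower in mutant forebrain, but by an amount that rested on WT 3. The WT libraries held 127, 116 and 172 CPM, with WT 3 the highest. The Ocn+/- libraries were at 101, 99.4 and 88.7 CPM and the Ocn-/- libraries at 112, 101 and 91.3, so that all 6 lay under the lowest WT library. The log2 fold change was -0.51 (SE 0.124, adjusted p = 0.0343) in Ocn+/- and -0.44 (SE 0.124, adjusted p = 0.0556) in Ocn-/-. Without WT 3 they were -0.33 (adjusted p = 0.125) and -0.26 (adjusted p = 0.223). The Ocn+/- call was lost as well without Ocn+/- 1 (adjusted p = 0.0771), Ocn+/- 2 (0.0875) and Ocn+/- 3 (0.116), and Ocn-/- passed without WT 2 (0.0277). Ocn-/- passed as well with upper quartile scaling (0.0366), DESeq2 (0.0157), the likelihood ratio test (0.0223), no filter (0.000481) and at least 10 counts in every library (0.0472). In testes Igf1r stood at 195 and 213 CPM in WT, 172, 231 and 193 in Ocn+/- and 190, 178 and 196 in Ocn-/-, which overlap.

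Insr, the insulin receptor, did not pass the test in either organ. Its forebrain levels were 80.3 to 86.9 CPM in WT, 74.1 to 82.2 in Ocn+/- and 70.5 to 84.5 in Ocn-/-, with a log2 fold change of -0.10 (95% interval -0.28 to 0.08) in each mutant. In testes it was 68.7 and 82.8 CPM in WT, 64.6 to 68.0 in Ocn+/- and 61.7 to 73.3 in Ocn-/-. The Ocn+/- testes lay just below WT without passing the test (-0.18, adjusted p = 0.411).

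Neither adaptor passed the test between genotypes. In forebrain Irs2 was at 62.8, 63.7 and 74.9 CPM in WT, 60.1 to 62.3 in Ocn+/- and 51.9 to 57.0 in Ocn-/-, with log2 fold changes of -0.13 (adjusted p = 0.463) and -0.28 (adjusted p = 0.0871). Neither mutant overlapped WT, and the highest WT value was that of WT 3, without which the changes were -0.0458 (adjusted p = 0.866) and -0.20 (adjusted p = 0.323). In testes Irs2 spread widely in Ocn+/-, from 60.6 to 110.0 CPM, around the WT values of 68.9 and 86.0. Irs1 kept to 21.8 to 33.4 CPM in forebrain and 28.2 to 39.1 in testes, both mutants overlapped WT in both organs, and no comparison between genotypes passed. Its counts were not whole in any of the 17 libraries, since RSEM split reads that it shares, so its values are less certain.

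Igfbp7, a binding protein with low affinity for IGFs that is made by vessel walls, lay below WT in every mutant forebrain without passing the test. It was at 24.4, 30.2 and 27.4 CPM in WT, 20.2, 21.8 and 24.1 in Ocn+/- and 18.4, 18.6 and 23.9 in Ocn-/-. No mutant overlapped a WT library, and the comparisons gave log2 fold changes of -0.31 (adjusted p = 0.209) and -0.42 (adjusted p = 0.0789). Without Ocn-/- 3 the second was -0.55 (adjusted p = 0.0270). In testes the WT libraries were at 173 and 180 CPM, the Ocn+/- ones at 203 to 224, above both, and the Ocn-/- ones at 167 to 215. The difference between the organs was 0.56 (SE 0.161, adjusted p = 0.0554), which passed without testes Ocn-/- 2 (0.0138) or forebrain Ocn-/- 3 (0.0268).

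Igfbp6, which prefers IGF2 over IGF1, was near the limit of detection in forebrain, with 3 to 29 counts per library. The Ocn+/- forebrains held 15, 29 and 23 counts, against 11, 4 and 3 in WT and 5, 4 and 8 in Ocn-/-. Against WT the log2 fold change was 1.303 (SE 0.506, adjusted p = 0.150) in Ocn+/-, and -1.90 (SE 0.502, adjusted p = 0.999) between the mutants, with rank 11 of all genes by p. As with Igfbp5, the 3 highest libraries were those with the most olfactory bulb marker RNA. In testes, Igfbp6 was at 24.0 and 24.5 CPM in WT 19.3 to 42.6 in Ocn+/-, with the Ocn-/- testes between 20.6 and 23.5. The Ocn+/- testes passed without Ocn+/- 2, the lowest of them (0.69, adjusted p = 0.0204), as did Ocn-/- against Ocn+/- (-0.80, adjusted p = 0.0499).

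Igfbp2 and Igfbp4 did not pass the test between genotypes in either organ. Igfbp2, abundant in fetal tissue, was at 68.4 to 89.8 CPM in all forebrains, and its log2 fold changes against WT were -0.02 (95% interval -0.23 to 0.19) and 0.01 (-0.21 to 0.22). In testes it spread from 20.2 to 131 CPM, with 65.0 and 131 CPM in WT, 75.6 to 104 in Ocn+/-, and 63.7, 58.4 and 20.2 in Ocn-/-, the last from Ocn-/- 3. The change in Ocn-/- testes was -1.05 (SE 0.544, adjusted p = 0.328), and it was -0.44 without WT 2 and -0.68 without Ocn-/- 3. Summed fibroblast markers in Ocn-/- 3, at 5752 CPM, were the lowest of the 8 testes, and 8053 to 11595 in the others. The part of connective tissue in the Igfbp2 value was not tested. Igfbp4, which the protease Pappa cleaves, was at 71.7 to 105.8 CPM in forebrain and 290 to 418 in testes, with log2 changes between -0.15 and 0.17 against WT.

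**Figure D4:**
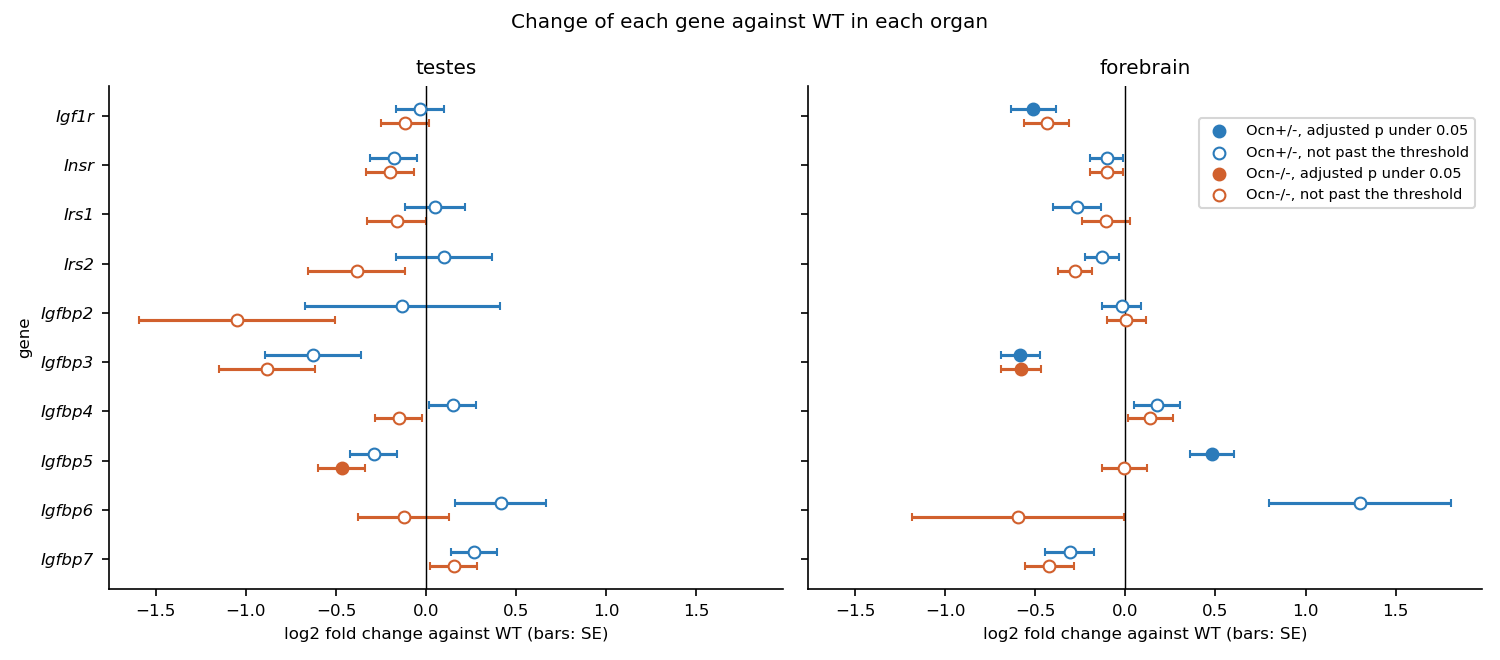
Log2 fold change of each gene against WT in testes and forebrain, Ocn+/- in blue and Ocn-/- in orange; bars are the SE, and filled points have an adjusted p under 0.05. Filled points are Igfbp5 in Ocn-/- testes (-0.47), and in forebrain Igfbp3 in both mutants (-0.58 each), Igf1r (-0.51) and Igfbp5 (0.48) in Ocn+/-.

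Groups without overlap were common among all genes, and the counts among the 10 are given beside that share. In testes 4 of 10 did not overlap in Ocn+/- (3 lower, 1 higher), where 46.7% of all genes did not, and 5 of 10 in Ocn-/- (all lower), where 42% did not. In forebrain the counts were 6 of 10 in Ocn+/- (4 lower, 2 higher) and 4 of 10 in Ocn-/- (all lower), beside 26.8% of all genes in each. The median log2 change of the 10 genes in testes was 0.01 in Ocn+/- and -0.18 in Ocn-/-, and in forebrain -0.12 and -0.19, where the median over all genes was within 0.01 of zero in each. The median absolute change of the 10 was 0.16 and 0.18 in testes, against 0.29 and 0.27 over all genes, and 0.29 and 0.21 in forebrain, against 0.18 and 0.19.

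Ocn-/- and Ocn+/- pups, whose mothers had the same genotype, did not differ past the threshold in any of the 10 genes. In testes 0% of the genes tested passed (0 by edgeR's quasi-likelihood test, with 1881 at an unadjusted p under 0.05; DESeq2 called 70), and in forebrain 0.00622% did, which is 1 gene, with 515 at an unadjusted p under 0.05. All 10 genes had a lower estimate in Ocn-/- than in Ocn+/- testes, with a median of -0.23 and a range from -0.92 (Igfbp2) to -0.02 (Insr), although the sign turned for Insr and Igf1r when single libraries were left out. The smallest unadjusted p was 0.0206, for Igfbp4 (-0.30, adjusted p = 0.356). In the same comparison the estimates were negative for 6 of 6 fibroblast markers (median -0.47), 6 of 6 macrophage markers (-0.57) and 6 of 6 endothelial markers (-0.19), with 0 called, and their part in the shift of the 10 genes was not tested.

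All binding proteins but Igfbp2 were higher in testes than in forebrain. The difference between testes and forebrain, averaged over genotypes, passed in 7 of 10, where 84.4% of genes passed, so that the count itself is no more than that of genes at large. Of the 6 binding proteins 5 were higher in testes, on the log2 scale by 4.75 for Igfbp6 (SE 0.192), 2.75 for Igfbp7, 2.40 for Igfbp3, 1.75 for Igfbp4 and 1.67 for Igfbp5. Igf1r was higher in testes by 0.51 (SE 0.0776, adjusted p = 2.22e-06) and Insr lower (-0.52, SE 0.0635, adjusted p = 5.34e-08). For Irs1 (-0.02), Irs2 (-0.07) and Igfbp2 (-0.34, adjusted p = 0.134) the test was not passed. With library size alone Irs1 (0.30, adjusted p = 0.0021) and Irs2 (0.25, adjusted p = 0.0249) passed as higher in testes. The sign for both turned with other scalings of the libraries, which moved the median of all genes from 0.09 to 0.40.

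Levels per kb of annotated exon were set on 1 TMM scale for all 17 libraries, and so differ somewhat from the CPM above, which were scaled within each organ. On this scale Igfbp5 led in testes with 128 ± 20.4 CPM per kb (SD, n = 8), followed by Igfbp4 (69.6), Igfbp3 (54.6), Igfbp2 (32.3), Igfbp7 (32.1), Igfbp6 (12.5 to 27.1 over the 8 libraries), Igf1r (8.79), Irs2 (8.76), Insr (4.42) and Irs1 (3.06). Between neighbours in that order the ranges of the libraries overlapped, except between Igfbp5 and Igfbp4, Igfbp6 and Igf1r, Irs2 and Insr, and Insr and Irs1. In forebrain Igfbp5 (41.2 ± 8.57, SD, n = 9) and Igfbp2 (40.4) stood together at the top, followed by Igfbp4 (20.6), Igfbp3 (10.7), Irs2 (9.23), Insr (6.39), Igf1r (6.31), Igfbp7 (4.74), Irs1 (3.12) and Igfbp6 (0.708). Here Igfbp2 and Igfbp4, Igfbp4 and Igfbp3, Irs2 and Insr, and Irs1 and Igfbp6 did not overlap. With the longest transcript as length, Igf1r (9.93), Insr (9.38) and Irs2 (9.23) changed places in forebrain and Igfbp2 (56.1) moved ahead of Igfbp5.

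**Figure D5:**
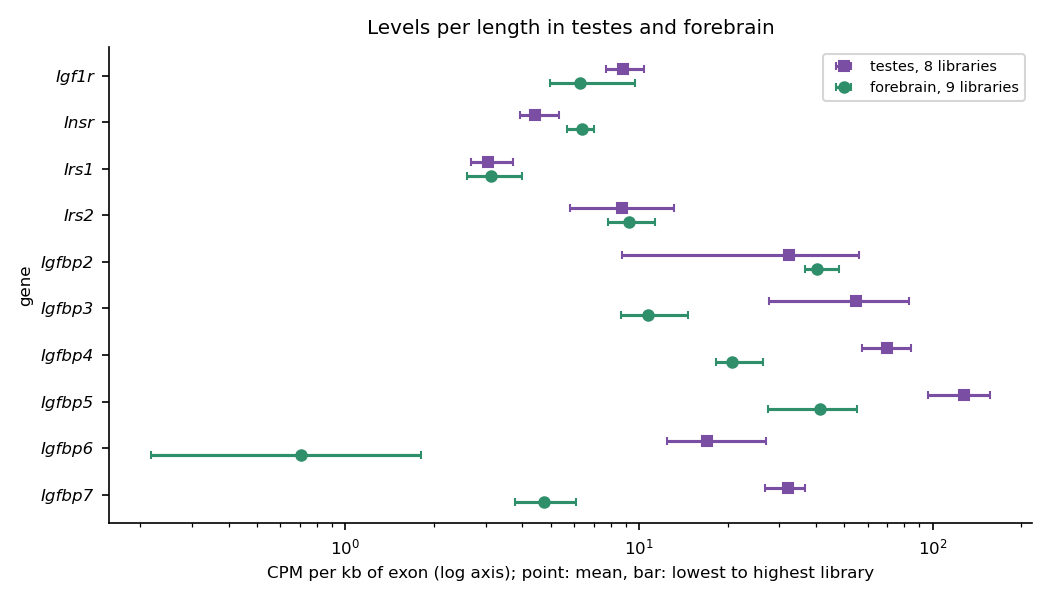
Level of each gene per kb of annotated exon, on a log axis, in 8 testes (squares) and 9 forebrains (circles); points are means and bars run from the lowest to the highest library. Binding proteins other than Igfbp2 lie to the right in testes, by the most for Igfbp6 (12.5 to 27.1 against 0.217 to 1.81 CPM per kb), while for Irs1 and Irs2 the ranges of the organs overlap.

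The ligand Igf1 was higher in both mutant forebrains and lower in Ocn+/- testes. In forebrain it was at 18.8, 16.8 and 16.4 CPM in WT, 39.4, 41.5 and 38.6 in Ocn+/- and 20.8, 37.5 and 33.7 in Ocn-/-. The log2 fold change was 1.19 (adjusted p = 0.00103) in Ocn+/- and 0.82 (adjusted p = 0.0136) in Ocn-/-, the latter called in 6 of 9 fits that left out a library and not without WT 3 (0.79, adjusted p = 0.0871). Ocn-/- 1, the forebrain with the fewest olfactory bulb markers, had the lowest Igf1 of the mutants. Of 5 markers of macrophages and microglia tested, 1 was called higher in each mutant forebrain. Estimates were positive for 4 and negative for 1 in Ocn+/-, and positive for 3 and negative for 2 in Ocn-/-. The sum was 55.9 to 71.4 CPM in WT, 68.0 to 84.9 in Ocn+/- and 64.8 to 80.2 in Ocn-/-. The part of olfactory bulb tissue or of microglia in the Igf1 values was not tested. In testes Igf1 was at 636 and 610 CPM in WT and 382, 489 and 425 in Ocn+/- (-0.53, adjusted p = 0.0409, called in 3 of 8 such fits and at 0.237 without WT 1), and 515, 643 and 440 in Ocn-/-, on both sides of WT (-0.23, adjusted p = 0.389). The difference between the organs was -1.40 (adjusted p = 0.00212) and was called in 17 of 17 such fits.

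Igf2, the fetal ligand, fell in Ocn-/- testes, from 1408 and 1765 CPM in WT to 1072, 1085 and 723 (-0.72, adjusted p = 0.0239, called in 7 of 8 fits that left out a library, and 0.365 without WT 2). Ocn+/- testes held 1164 to 1412 CPM (-0.26, adjusted p = 0.362), and in forebrain its genotypes overlapped. The Ocn-/- testis with the least Igf2, Ocn-/- 3, also had the lowest fibroblast marker sum, and the part of connective tissue in the Igf2 values was not tested. Igf2r, which clears IGF2, was lower in every mutant testis (205 to 270 CPM) than in WT (282 and 307) without passing (-0.26, adjusted p = 0.210 and -0.35, adjusted p = 0.1099). Igfbp1, the binding protein controlled by insulin in liver, had 0 to 5 counts per library and was not tested.

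Of 16 genes of the extracellular IGF system (ligands, clearance receptor, proteases and further binding proteins), 12 were tested in testes and 11 in forebrain. In testes 2 were lower and 0 higher in each mutant: Htra1, a protease that cleaves binding proteins, in both, with Igf1 in Ocn+/- and Igf2 in Ocn-/-. Htra1 went from 162 and 160 CPM in WT to 106, 111 and 126 in Ocn+/- (-0.50, adjusted p = 0.0174) and 112, 115 and 117 in Ocn-/- (-0.49, adjusted p = 0.0219). Each call held in 5 of 8 fits without a library, and the highest adjusted p came without WT 2 (0.173 and 0.259). In forebrain 1 was higher (Igf1) and 1 lower in each mutant. The lower gene was Igfbpl1, which resembles the binding proteins and is made by immature neurons, at 185, 218 and 227 CPM in WT, 131, 161 and 152 in Ocn+/- (-0.50, adjusted p = 0.0101) and 170, 134 and 152 in Ocn-/- (-0.46, adjusted p = 0.0147). Without WT 3 it was -0.44 (adjusted p = 0.0700) and -0.40 (adjusted p = 0.0892). Over all genes 8.25% and 5.64% were called in testes and 3.89% and 4.85% in forebrain, in the order Ocn+/- and Ocn-/-. The list's median in testes was -0.29 in each mutant, and in forebrain -0.22 and -0.19. The endothelial and Leydig marker sums were lower in the same mutant testes. The part of those cells in the testes values of Htra1, Igf1 and the list was not tested.

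Downstream of the receptors, 28 signalling genes were tested. In testes 2 were higher and 1 lower in Ocn+/-, where 8.25% of all genes were called, and 1 higher and 0 lower in Ocn-/-, where 5.64% were, with list medians of -0.0322 and 0.0384. Foxo6, a FOXO factor best known from brain, was the gene higher in both, at 31.4 and 30.3 CPM in WT, 59.5, 45.3 and 57.3 in Ocn+/- (0.81, adjusted p = 0.0178) and 47.3, 38.5 and 61.2 in Ocn-/- (0.67, adjusted p = 0.0471). The other calls in Ocn+/- were Eif4ebp1, a repressor of translation (0.61, adjusted p = 0.0455), and the kinase Gsk3b (-0.47, adjusted p = 0.0381). The Foxo6 calls held in 4 and 3 of 8 fits without a library, and without WT 2 the adjusted p was 0.170 and 0.355. In forebrain Rictor, a subunit of mTORC2, was lower in Ocn+/- (-0.40, adjusted p = 0.0377), and the kinase subunit Pik3cb (0.52, adjusted p = 0.0251) and the mTORC1 subunit Rptor (0.39, adjusted p = 0.0275) were higher in Ocn-/-. Without WT 3, where 1.11% and 1.15% of all genes were called, 0 of the 28 were called in either mutant forebrain.

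Of 16 FOXO-induced genes, 15 were tested in testes, and 5 were lower in Ocn+/- and 3 in Ocn-/- with 0 higher, where 4.36% and 3.09% of all genes were called lower. The list's median was -0.46 and -0.38, beside a median over all genes within 0.01 of zero. These are the testes in which the endothelial and Leydig marker sums were lower, and the part of those cells in the list's values was not tested. The lower genes in Ocn+/- were Cat (-0.56, adjusted p = 0.0115), Ccng2 (-0.59, adjusted p = 0.0185), Fbxo32 (-0.64, adjusted p = 0.00862), Pdk4 and Pck1, and in Ocn-/- Klf15 (-1.35, adjusted p = 0.0167), Pdk4 and Pck1. Pdk4, a brake on glucose oxidation, was at 12.3 and 15.4 CPM in WT, 6.64, 6.18 and 6.33 in Ocn+/- (-1.12, adjusted p = 0.0254) and 3.20, 5.86 and 5.56 in Ocn-/- (-1.51, adjusted p = 0.00652). Pck1, an enzyme of gluconeogenesis that the study itself singled out in these testes libraries, had 15 and 26 counts in WT, 1, 1 and 7 in Ocn+/- and 3, 2 and 5 in Ocn-/-, with log2 changes of -2.66 (adjusted p = 0.0409) and -2.61 (adjusted p = 0.0494). Its level was near the limit of detection in every testis, and having been chosen on these samples it is not independent evidence for the list. Pdk4 held in 4 and 7 of 8 fits without a library and Pck1 in 3 and 3, and without WT 2 none of these 4 calls passed (0.255 and 0.169 for Pdk4, 0.339 and 0.460 for Pck1). In forebrain 1 of 14 tested was lower in each mutant, where 2.68% and 3.05% of all genes were called lower, with list medians of -0.25 and -0.23. It was Cdkn1b, an inhibitor of the cell cycle, at 122, 126 and 154 CPM in WT, 94 to 107 in Ocn+/- (-0.39, adjusted p = 0.0343) and 91 to 109 in Ocn-/- (-0.44, adjusted p = 0.0159). Without WT 3 the adjusted p was 0.183 and 0.105. Between Ocn-/- and Ocn+/- 0 genes of these 3 lists were called in either organ.

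Among 15085 genes of the 9 forebrains, those whose pattern over the libraries came nearest to that of Igfbp3 were Clk4, Nsun6 and Stom. Their mean absolute distance from it, on centred log2 CPM, was 0.0563, 0.0613 and 0.0639. This likeness is a description over 9 libraries.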

How the data were processed

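Poly(A) RNA of testes and forebrain of male pups was sequenced on an Illumina HiSeq. Per the study's methods and processing notes, the authors trimmed reads with Trim Galore 0.6.6, aligned them to GRCm39 with STAR 2.7.8a and deposited RSEM 1.3.3 expected counts per gene, 1 table for all 17 libraries. The annotation release and the strandedness of counting are not given in the sources used here. Gene names and positions came from GENCODE vM39, which held 54749 of 55359 identifiers.

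Expected counts were rounded, filtered by filterByExpr and scaled by TMM. Each organ was fitted alone with its 3 genotypes by edgeR 4.0.16 (robust quasi-likelihood test, R 4.3.3), and both organs together for differences between organs. Adjustment was by Benjamini and Hochberg's method across every gene that passed the filter, with a threshold of 0.05. Motifs were searched on both strands. The methods were tested on simulated data. The 10 genes and all gene lists were chosen with earlier results of these data known. Named were the 10 genes, pathway genes called in both mutants of an organ, Igf1, Igf2, Igf2r and Igfbp1, and the 3 genes nearest in pattern to a member called in both mutants. Pathway genes called in 1 mutant only, and Cat, were named after their values were seen. Alternatives were other scalings, filters and tests (DESeq2 1.42.0 among them), a replicate block, and leaving out each library. Counts without forebrain WT 3 were added after seeing the data. A list of inhibitors of receptor signalling is not reported here.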

Additional observations from a re-analysis of the deposited data

Results flagged for a closer look

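Among the 10 genes and the pathway lists, the mean effect of the mutant genotypes differed between testes and forebrain in 4 genes by a test of that difference (edgeR's quasi-likelihood test, adjusted over 17800 genes, of which 2.96% were called). The difference, testes minus forebrain on the log2 scale, was -0.63 for Igfbp5 (adjusted p = 0.0373), which was lower in Ocn-/- testes and higher in Ocn+/- forebrain. For Igf1 it was -1.40 (adjusted p = 0.00212). For Foxo6, which was higher in mutant testes, it was 0.96 (adjusted p = 0.0342), and it was called in 10 of 17 fits that left out a library, but not without forebrain WT 3 (0.82, adjusted p = 0.0850), nor without testes WT 2, which gave the highest adjusted p (0.189). For Cat, which encodes catalase, it was -0.56 (adjusted p = 0.0211), called in 13 of 17 such fits and at 0.133 without testes WT 1, with 90.7 and 97.0 CPM in WT testes, 61.7 to 66.3 in Ocn+/- testes, 69.5 to 73.9 in Ocn-/- testes and 60.8 to 76.8 across the 9 forebrains. No gap test for an outlying value of a single gene was run, since the groups hold 2 or 3 libraries.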

How the results depend on the processing

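Igfbp3 in forebrain kept its direction and its call in both mutants under all 18 alternatives, with an adjusted p of at most 0.0347 in Ocn+/- and 0.0354 in Ocn-/-. No other call between genotypes among the 10 genes held under every alternative. With 2 or 3 libraries a group the number of genes called over all genes was itself unstable: 118 to 2149 in Ocn+/- testes, 85 to 1763 in Ocn-/- testes, 0 to 252 between the mutant testes, 183 to 1265 in Ocn+/- forebrain, 189 to 1502 in Ocn-/- forebrain, 0 to 34 between the mutant forebrains, 93 to 1070 for the difference between organs in the mutant effect and 10458 to 17386 between organs. The causes were not tested.

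Of the 10 genes, Ocn-/- testes had 1 called against WT, 0 with library size alone or with only the 2 genotypes, 2 with the likelihood ratio test or no filter, and 0 to 2 when a library was left out. Ocn+/- testes had 0, 1 with no filter or only the 2 genotypes, and 0 to 1 without a library. Between the mutant testes the count was 0, 1 with no filter, and 0 to 1 without a library. Ocn+/- forebrain had 3, 2 with DESeq2 size factors in edgeR, 1 with the replicate block, and 1 to 3 without a library. Ocn-/- forebrain had 1, 2 with the upper quartile, DESeq2, the likelihood ratio test, no filter, at least 10 counts in every library or the replicate block, and 1 to 2 without a library. Between the mutant forebrains it was 0, and 1 (Igfbp5) with no filter. The difference between organs in the mutant effect had 1, 2 with DESeq2, the likelihood ratio test, no filter or at least 10 counts, and 0 to 2 without a library, and the organs themselves 7, 9 with library size alone, where Irs1 and Irs2 were added, 6 of 9 tested with at least 10 counts, and 7 to 8 without a library.

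Igfbp5 in Ocn-/- testes missed the threshold with library size alone (adjusted p = 0.0705) and with only the 2 genotypes (0.0524), and in Ocn+/- forebrain with DESeq2 size factors (0.0511). Deviations of same-numbered libraries had correlations from -0.094 to 0.146, and the replicate numbers are used here as names. With 2 or 3 libraries a group these values cannot settle whether a number marks a shared batch or litter. With the replicate block, 966, 836 and 1 genes were called in testes and 768, 1140 and 1 in forebrain (Ocn+/- against WT, Ocn-/- against WT, between the mutants), and 504 and 15046 for the difference in mutant effect and between organs. Under the block Igfbp5 was at 0.0859 in Ocn-/- testes and 0.0620 in Ocn+/- forebrain, Igf1r at 0.0551 in Ocn+/- forebrain, and Irs2 in Ocn-/- testes (-0.61, 0.0238) and Igfbp7 in Ocn-/- forebrain (-0.44, 0.0415) passed.

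Signs turned mostly for values near no change. With library size alone, Igf1r was 0.0433 in Ocn+/- testes, Igfbp2 0.06 in Ocn+/- forebrain, Irs1 0.0012 and Igfbp5 0.10 in Ocn-/- forebrain, Insr 0.0213 between the mutant forebrains, and Irs1 0.30 and Irs2 0.25 between organs. With the upper quartile, Igfbp2 was -0.0063 in Ocn-/- forebrain, Igfbp3 -0.0075 between the mutant forebrains, and Irs1 0.13 and Irs2 0.0740 between organs. With the block, Irs2 was -0.14 and Igfbp2 0.10 in Ocn+/- testes, Igfbp2 -0.0067 in Ocn-/- forebrain, and Irs2 -0.0649 for the difference in mutant effect. With no filter, Igfbp5 was 0.0081 in Ocn-/- forebrain and Insr 0.0035 between the mutant forebrains, where Insr was 1.8e-05 with DESeq2 size factors and 5.77e-05 with DESeq2. With at least 10 counts Irs1 was 0.0037 between organs.

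Leaving out a library also turned signs. In Ocn+/- testes the ranges were -0.10 to 0.24 (Irs1), -0.15 to 0.29 (Irs2), -0.14 to 0.0643 (Igf1r) and -0.54 to 0.48 (Igfbp2), in Ocn-/- testes -0.31 to 0.0273 (Irs1), and between the mutant testes -0.10 to 0.0244 (Insr) and -0.16 to 0.0439 (Igf1r). In Ocn+/- forebrain they were -0.10 to 0.0414 (Igfbp2) and -0.0011 to 0.29 (Igfbp4), in Ocn-/- forebrain -0.13 to 0.0751 (Igfbp2), -0.18 to 0.0096 (Irs1) and -0.12 to 0.16 (Igfbp5), and between the mutant forebrains -0.0684 to 0.0608 (Insr), -0.00081 to 0.14 (Igf1r), -0.15 to 0.14 (Igfbp4), -0.0485 to 0.0353 (Igfbp3) and -0.11 to 0.10 (Igfbp2). For the difference in mutant effect they were -0.0359 to 0.29 (Irs1), -0.10 to 0.22 (Irs2) and -0.23 to 0.0398 (Insr), and between organs -0.0827 to 0.0264 (Irs1). Testes without a WT library leave 1 WT library, which is then assumed to vary like the mutants.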
